A study of Mus musculus with 30 samples.

Results

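The genes described here belong to phenylalanine and tyrosine catabolism and to the tetrahydrobiopterin cofactor cycle that serves it. They were taken by name from the liver count tables, as the rows whose gene symbol was Gch1, Gchfr, Pcbd1, Qdpr, Tat, Hpd, Hgd or Fah. All 8 were present among the 14173 genes of the tables, and all 8 were kept by the filter on low counts in every comparison. In GRCm38, Gch1 lies at chr14:47153895-47189413, Gchfr at chr2:119167773-119172390, Pcbd1 at chr10:61089331-61094324 and Qdpr at chr5:45434021-45450236. Tat lies at chr8:109990437-109999803, Hpd at chr5:123171807-123182727, Hgd at chr16:37580153-37632020 and Fah at chr7:84585159-84606722, so that no pair overlaps. Counts are of whole genes, read from their 3′ ends. Raw counts of these genes ran from 715 to 14661 per liver, so that none was limited by depth.

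Liver RNA came from 30 male C57BL6/J mice aged 6 months, with 6 mice on each of 5 diets and 1 library per mouse. Casein was given at 20% (Cas-20%) or 5% (Cas-5%) of the diet. Soy protein was given at 20% without (Soy-20%) or with (Soy-20% + SAA) added methionine and cystine, or at a restricted level (Soy-10%, for which the labels give 11.5%). Methionine was 0.57 g per 100 g in Cas-20% and 0.58 g in Soy-20% + SAA, against 0.15 g in Cas-5%, 0.13 g in Soy-10% and 0.22 g in Soy-20%. Cystine was 0.41 g per 100 g in both Cas-20% and Soy-20% + SAA, 0.1 g in Cas-5%, 0.13 g in Soy-10% and 0.22 g in Soy-20%. The labels name no other genotype, allele or agent. Protein and sulfur amino acids fell together in both restricted diets, so their effects cannot be told apart in the restriction comparisons. Soy-20% + SAA and Soy-20% differ in methionine and cystine at the same protein level.

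Phenylalanine is hydroxylated to tyrosine in the liver, and tyrosine is then degraded to fumarate and acetoacetate. The hydroxylation consumes tetrahydrobiopterin, which Gch1 (GTP cyclohydrolase, the first and rate-limiting enzyme) begins to build from GTP, and which Pcbd1 (pterin carbinolamine dehydratase) and Qdpr (dihydropteridine reductase) regenerate after each turnover. Gchfr encodes the regulatory protein that binds Gch1 and passes on feedback from tetrahydrobiopterin and phenylalanine. Tat (tyrosine aminotransferase), Hpd (4-hydroxyphenylpyruvate dioxygenase), Hgd (homogentisate dioxygenase) and Fah (fumarylacetoacetate hydrolase) act on the way from tyrosine to the final products. Tat is known as a gene that glucocorticoids, glucagon and feeding regulate, and loss of Hpd, Hgd or Fah causes inherited disorders of tyrosine breakdown.

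The libraries held 7694015 to 14565542 counts. All 6 hepatocyte markers were present, with summed normalized counts of 769845 to 988743 per liver. In bulk liver RNA, fewer cells of a type and less RNA per cell cannot be told apart. Livers 3 to 6 of Soy-20% + SAA stood apart from the rest. In these 4 libraries, counts rose by 0.055 to 0.194 on the log2 scale for each 10% of GC in the last 200 nt of a transcript, against -0.057 to 0.023 in the other 26 libraries. Soy-10% liver 4 held pancreatic transcripts, with 4 acinar markers summing to a normalized count of 5087, whereas the highest sum in the other diets was 3.22. For comparisons with Soy-20% + SAA, values without its livers 3 to 6 or with the GC trend as a covariate stand beside the results, as do those without Soy-10% liver 4 where a call changed.

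All 8 genes differed among the 5 diets in the edgeR F test, as did 43.4% of the 12561 genes tested. The adjusted p from edgeR was between 7.7e-10 for Qdpr and 0.00638 for Gch1. The call for Gch1 was lost when only livers 1 and 2 of Soy-20% + SAA were kept (edgeR adjusted p = 0.0997), and with the GC trend of each library as a covariate (edgeR adjusted p = 0.131). In the plot of levels by diet, 6 of the 8 genes shared one shape, with Cas-5% lowest and Soy-10% next. Gch1 and Tat followed other orders.

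**Figure D1:**
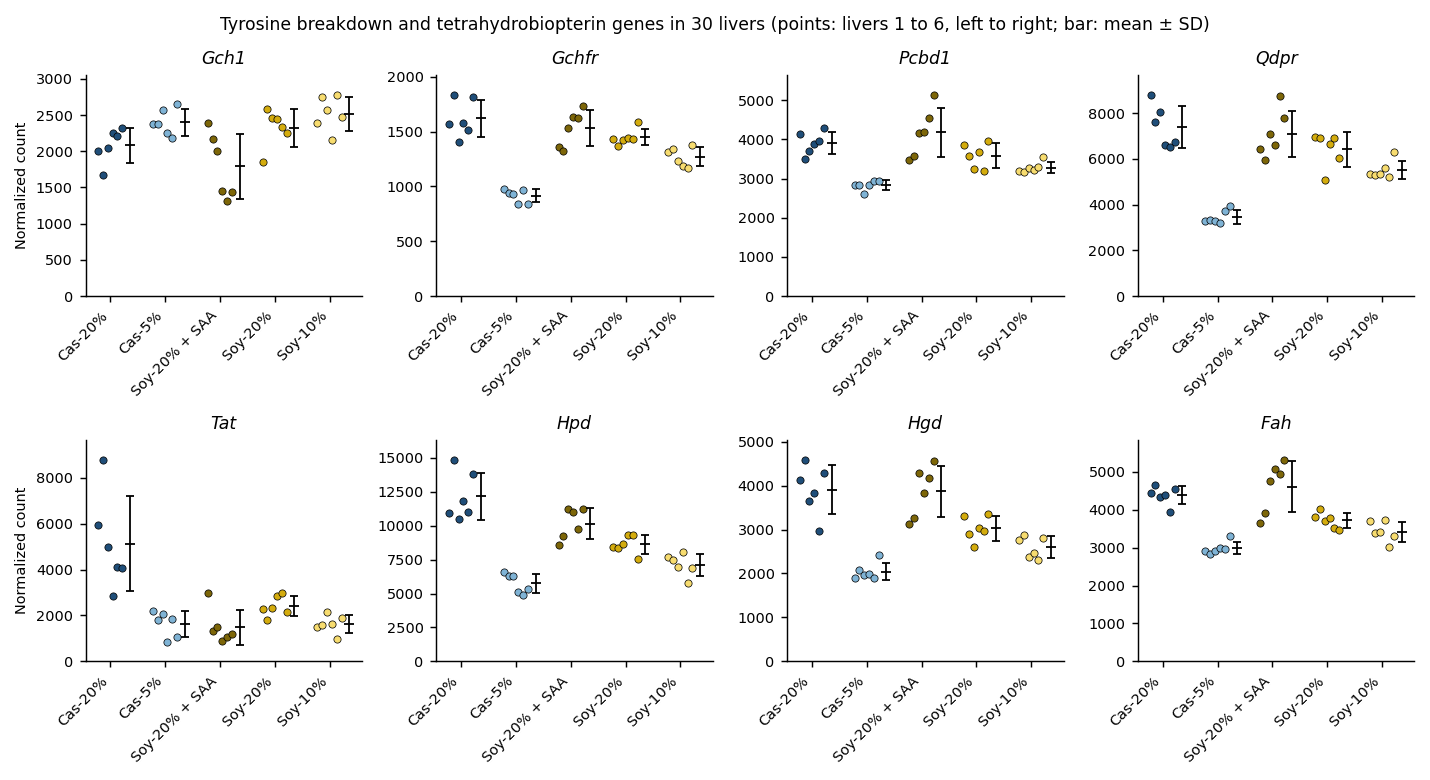
Normalized count (vertical axis, from 0) of each gene in every liver, by diet; points are livers 1 to 6 from left to right within a diet, and the bar beside them is the mean ± SD (n = 6). The Cas-5% livers lie below all Cas-20% livers for every gene but Gch1, and Soy-20% + SAA livers 3 to 6 lie apart from livers 1 and 2 for most genes.

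Casein restriction, the comparison of Cas-5% with Cas-20%, lowered both recycling enzymes, the Gch1 regulator and all 4 breakdown enzymes, while Gch1 did not pass the test. The 7 genes fell to between 0.323 and 0.73 of their Cas-20% level, and the median log2 difference of the 8 genes was -0.86, against 0.02 over all genes. Of the 12076 genes tested, 13.3% were called lower in Cas-5%. The Cas-5% and Cas-20% livers did not overlap for any of the 7, a pattern shown in that direction by 7.73% of genes. Each call held when any 1 liver was left out.

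Among the cofactor genes, Qdpr responded the most. Normalized counts of Qdpr were 6531 at the lowest, 7172 at the median and 8810 at the highest in Cas-20%, against 3194, 3313 and 3944 in Cas-5%. The highest Cas-5% liver was thus well below the lowest Cas-20% liver, and the log2 difference was -1.08 ± 0.09 (SE, n = 6 per diet; edgeR adjusted p = 1.86e-07). Qdpr ranked 55 by p among all genes tested.

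Gchfr fell nearly as far. Its normalized counts were 1407, 1576 and 1838 (lowest, median, highest) in Cas-20% and 839, 937 and 975 in Cas-5%, with a log2 difference of -0.81 ± 0.08 (SE, edgeR adjusted p = 1.08e-06). Pcbd1, the dehydratase that acts before Qdpr in the cycle, changed less, from 3502, 3926 and 4283 to 2602, 2847 and 2941 (log2 difference -0.45 ± 0.06, SE, edgeR adjusted p = 6.19e-05). Neither gene had a Cas-5% liver within the Cas-20% range.

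Gch1, which supplies new cofactor, had overlapping values in the casein diets. Its normalized counts were 1665, 2128 and 2326 in Cas-20% and 2179, 2373 and 2655 in Cas-5%. The log2 difference was 0.22 ± 0.08 (SE), with a 95% interval from 0.06 to 0.38 and an edgeR adjusted p of 0.0601. It passed the threshold without Cas-20% liver 6 or without Cas-5% liver 5, and the lowest adjusted p was then 0.0436.

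Along the breakdown route, the first enzyme showed the widest spread and the largest decrease. Tat reached 2841, 4559 and 8786 normalized counts in Cas-20% (lowest, median, highest), and 848, 1831 and 2214 in Cas-5%. The values of Tat varied about 3-fold within Cas-20% alone, yet the diets did not overlap, and the log2 difference was -1.63 ± 0.26 (SE, edgeR adjusted p = 0.000205). Without Cas-20% liver 2, the highest, the difference was -1.41.

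Hpd, which forms homogentisate, went from 10527, 11415 and 14852 in Cas-20% to 4903, 5808 and 6560 in Cas-5%, a log2 difference of -1.07 ± 0.10 (SE, edgeR adjusted p = 1.29e-06). Hgd, which opens the homogentisate ring, went from 2976, 3978 and 4584 to 1903, 1976 and 2427 (-0.92 ± 0.10, SE, edgeR adjusted p = 3.12e-06). Fah, the last enzyme of the route, went from 3944, 4416 and 4658 to 2836, 2938 and 3294 (-0.54 ± 0.06, SE, edgeR adjusted p = 8.43e-06). All 3 had every Cas-5% liver below every Cas-20% liver.

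Markers of other cells had overlapping ranges in the casein diets. Summed counts of 4 stellate cell markers were 3024 to 3832 in Cas-20% and 3548 to 4894 in Cas-5%, those of 4 bile duct markers 216 to 452 and 169 to 339, and those of 5 red blood cell markers 15728 to 34944 and 11503 to 19812. Kupffer and sinusoidal endothelial markers, 4 each, overlapped as well. The part of these cells in the decreases was not tested. Hepatocyte markers summed to 769845 to 877729 in Cas-20% and 785141 to 988743 in Cas-5%, which overlapped. Such a sum does not measure the share of hepatocytes, and its part in the decreases was not tested.

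The promoters of the 3 genes with the largest decreases and of Gch1, which did not fall, are shown to let their sequences be compared. Each runs from 250 bases before to 50 bases after the RefSeq start site in GRCm38.p6 and is written 5′ to 3′ in the direction of the gene. Capitals mark matches to any of 5 motifs on either strand. These are TATAAA, the TATA box, then CCAAT, which is its own name, then AGAACA, the core bound by the glucocorticoid receptor, then TTGCATCA, a composite element for C/EBP with ATF factors, and last TGACGTCA, the cAMP response element. None of the matches overlapped another.
Qdpr promoter (chr5:45450180-45450479, minus strand): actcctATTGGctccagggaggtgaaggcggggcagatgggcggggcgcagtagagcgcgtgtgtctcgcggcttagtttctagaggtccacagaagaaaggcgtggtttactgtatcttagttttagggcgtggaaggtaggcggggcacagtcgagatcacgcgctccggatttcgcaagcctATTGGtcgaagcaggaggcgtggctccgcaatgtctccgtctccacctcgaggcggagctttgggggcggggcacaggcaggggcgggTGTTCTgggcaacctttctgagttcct
Hpd promoter (chr5:123182674-123182973, minus strand): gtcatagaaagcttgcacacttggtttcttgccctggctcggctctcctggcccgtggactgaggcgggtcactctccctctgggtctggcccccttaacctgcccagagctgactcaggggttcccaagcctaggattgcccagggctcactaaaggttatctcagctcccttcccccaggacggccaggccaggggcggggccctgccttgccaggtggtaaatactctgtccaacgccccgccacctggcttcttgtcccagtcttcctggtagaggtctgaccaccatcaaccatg
Tat promoter (chr8:109990186-109990485, plus strand): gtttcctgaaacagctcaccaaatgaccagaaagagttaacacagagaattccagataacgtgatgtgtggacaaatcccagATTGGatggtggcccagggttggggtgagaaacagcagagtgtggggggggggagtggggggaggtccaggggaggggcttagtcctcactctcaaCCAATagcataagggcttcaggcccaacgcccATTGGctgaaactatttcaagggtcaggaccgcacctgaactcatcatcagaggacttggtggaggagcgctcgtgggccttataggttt
Gch1 promoter (chr14:47189364-47189663, minus strand): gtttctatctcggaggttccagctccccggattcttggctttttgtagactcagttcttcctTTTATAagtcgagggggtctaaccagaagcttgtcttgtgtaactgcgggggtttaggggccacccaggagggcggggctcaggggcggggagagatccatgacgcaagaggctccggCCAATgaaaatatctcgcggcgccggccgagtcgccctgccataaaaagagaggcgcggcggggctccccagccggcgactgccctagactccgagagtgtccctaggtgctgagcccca

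Tat held CCAAT 3 times, on both strands, starting 168, 72 and 40 bases before the start site. Qdpr held CCAAT 2 times and AGAACA 1 time, the latter starting 23 bases after the start site. Gch1 held TATAAA and 1 CCAAT, and Hpd held none of the 5. Of the other 4 genes, Gchfr held CCAAT, Pcbd1 TATAAA, Hgd both of these, and Fah none. The TATAAA matches of Gch1, Pcbd1 and Hgd lay on the strand opposite to the gene, starting 188, 250 and 139 bases before the start site. CCAAT was found in 37.4% of 32851 promoters of the same length, the TATA box in 13.6%, the glucocorticoid receptor core in 19%, the cAMP element in 1.79% and the composite element in 0.895%. No motif was common to the 7 genes that fell, and the windows differed widely in base composition, from 2 CpG in Hgd and 5 in Tat to 23 in Qdpr and 31 in Gchfr. A match to such short letters is a description of the window and not a site.

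Soy restriction was first measured as Soy-10% against Soy-20% + SAA, a control with methionine and cystine levels close to those of Cas-20%. It gave smaller differences in the same direction for 6 genes, and a higher level of Gch1. Qdpr, Pcbd1, Gchfr, Hpd, Hgd and Fah were called lower, at 0.67 to 0.827 of the control level, where 8.47% of 11983 genes tested were called lower. Gch1 was called higher at 1.4 times the control level, where 8.51% of genes were called higher. The median log2 difference of the 8 genes was -0.36, against -0.01 over all genes. However, no call of the 8 remained when only Soy-20% + SAA livers 1 and 2 were kept, nor with the GC trend as a covariate, and the calls among all genes went from 2035 to 317 and 387. The estimates of the genes called were also smaller in both fits. Both fits have less power, since 1 keeps 2 control livers and the GC trend lies mostly in Soy-20% + SAA.

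Hgd and Hpd were the genes whose soy diets did not overlap, a pattern that 3.31% of genes showed in that direction. Hgd normalized counts were 3128, 4004 and 4570 in Soy-20% + SAA (lowest, median, highest) and 2306, 2612 and 2880 in Soy-10% (log2 difference -0.58 ± 0.10, SE, n = 6 per diet; edgeR adjusted p = 0.00232). Hpd counts were 8601, 10368 and 11224 against 5759, 7242 and 8071 (-0.51 ± 0.09, SE, edgeR adjusted p = 0.00328). With livers 1 and 2 as the only supplemented controls, the differences were -0.30 for Hgd (edgeR adjusted p = 0.124) and -0.33 for Hpd (edgeR adjusted p = 0.146).

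The remaining genes overlapped between these diets. Fah counts were 3660, 4857 and 5313 in Soy-20% + SAA and 3019, 3391 and 3722 in Soy-10% (log2 difference -0.43 ± 0.09, SE, edgeR adjusted p = 0.00912). Qdpr counts were 5959, 6849 and 8741 against 5210, 5336 and 6302 (-0.37 ± 0.09, SE, edgeR adjusted p = 0.015). Pcbd1 (-0.35 ± 0.09, SE) and Gchfr (-0.27 ± 0.08, SE) differed by less, with edgeR adjusted p of 0.0168 and 0.0291. Gchfr was not called when Soy-10% liver 4, which carries pancreatic transcripts, was left out (edgeR adjusted p = 0.0548), and 6 of the 8 genes were then called. Gchfr also lost its call without Soy-10% liver 3 or 5 or without Soy-20% + SAA liver 4, 5 or 6. Summed counts of the 4 bile duct markers were lower in Soy-10% (169 to 215) than in Soy-20% + SAA (231 to 344) or Soy-20% (258 to 346), and their part in these differences was not tested.

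Gch1 and Tat set themselves apart in the soy diets. Gch1 counts were 1315, 1731 and 2394 in Soy-20% + SAA and 2159, 2517 and 2782 in Soy-10% (log2 difference 0.49 ± 0.14, SE, edgeR adjusted p = 0.0274). The higher Gch1 level of Soy-10% was 0.14 (log2, edgeR adjusted p = 0.535) against livers 1 and 2 alone, and the call was also lost without Soy-20% + SAA liver 4, 5 or 6 or without Soy-10% liver 2, 3 or 5, with an edgeR adjusted p of up to 0.0613. Tat counts were 866, 1263 and 2994 against 996, 1618 and 2170, which overlapped, and the difference of 0.13 ± 0.26 (SE, edgeR adjusted p = 0.764) left an interval from -0.38 to 0.63. The estimate for Tat was -0.41 against livers 1 and 2.

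The 4 Soy-20% + SAA livers with the GC trend had higher counts than livers 1 and 2 for 6 genes, lower counts for Gch1, and overlapping counts for Tat. Of the 16 values that livers 1 and 2 gave for the 8 genes, 12 lay within the range of the Soy-20% livers. Of the 32 values of livers 3 to 6, 3 did. Hgd, for example, reached 3843 to 4570 in livers 3 to 6, 3128 and 3259 in livers 1 and 2, and 2597 to 3359 in Soy-20%. Gch1 reached 1315 to 2005, then 2164 and 2394, and 1847 to 2586 in the same order. Of the genes with higher counts in livers 3 to 6, the last 200 nt are 42.5% GC in Hgd and 38.5% in Pcbd1 and Qdpr. They are 59% in Gchfr, 57% in Hpd and 51.5% in Fah. Gch1, with lower counts there, has 44.5%. Tat has the lowest share, 24.5%. The part of the GC trend in these levels was not tested beyond the fits with the covariate.

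**Figure D2:**
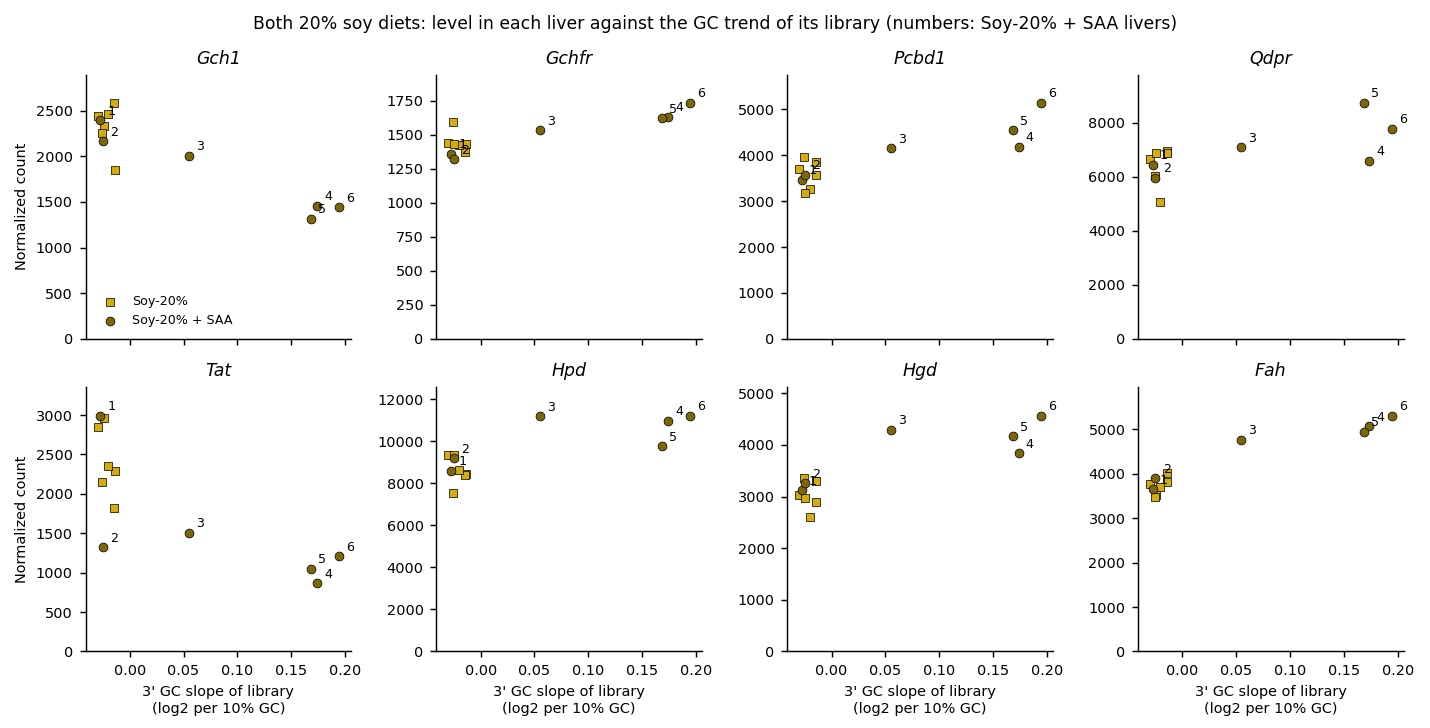
Normalized count (vertical axis, from 0) of each gene in the livers of both 20% soy diets against the GC slope of the library (horizontal axis, log2 change in counts per 10% GC in the last 200 nt); squares are Soy-20% livers and numbered circles Soy-20% + SAA livers. Livers 1 and 2 sit with the Soy-20% livers on the horizontal axis, and livers 3 to 6 sit to the right, higher for 6 genes and lower for Gch1.

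Against the unsupplemented Soy-20% control, none of the 8 genes was called by edgeR in Soy-10%, where 0.866% of 11897 genes tested were called, 0.546% lower. At an unadjusted p under 0.05, 5 of the 8 were past the threshold, as were 1460 of all genes (12.3%). DESeq2 called 2 of the 8, Tat and Hpd, and 228 among all genes. Log2 differences ran from -0.56 for Tat to 0.12 for Gch1, with a median of -0.20. Methionine differs less between these diets (0.22 against 0.13 g per 100 g) than between Soy-20% + SAA and Soy-10%.

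Tat had the largest estimate against Soy-20%. Its normalized counts were 1817, 2317 and 2969 in Soy-20% and 996, 1618 and 2170 in Soy-10%, which overlapped (log2 difference -0.56 ± 0.15, SE, edgeR adjusted p = 0.104). DESeq2 gave Tat an adjusted p of 0.0191. Hpd counts were 7537, 8559 and 9341 in Soy-20% and overlapped those of Soy-10% (-0.27 ± 0.08, SE, edgeR adjusted p = 0.131, DESeq2 adjusted p = 0.0463). Qdpr differed by -0.22, Hgd by -0.22 and Gchfr by -0.19, with edgeR adjusted p of 0.237, 0.209 and 0.152. The 95% intervals ran from -0.38 to -0.07 for Qdpr and from -0.37 to -0.07 for Hgd, so that a fall of the size seen with casein lay outside both. Qdpr was called when Soy-20% liver 3, the lowest, was left out (edgeR adjusted p = 0.0482).

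**Figure D3:**
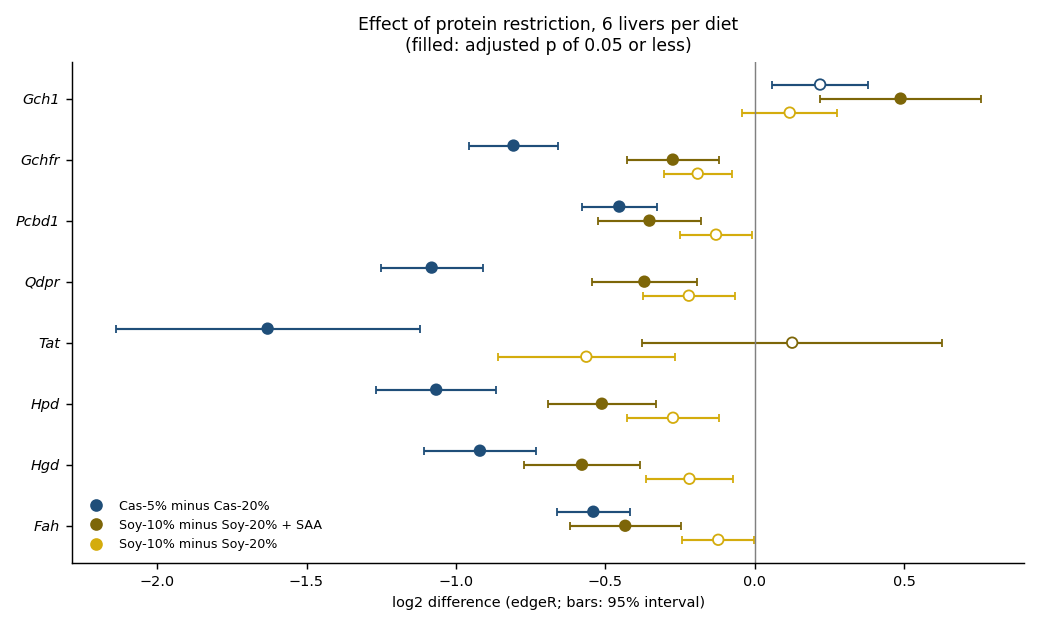
Log2 difference (horizontal axis) of each gene for casein restriction and for soy restriction against either 20% soy control, from edgeR with 6 livers per diet; bars are 95% intervals and filled points have an adjusted p of 0.05 or less. Differences for casein restriction reach -1.63 for Tat, while those against Soy-20% are all open and lie between -0.56 and 0.12.

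The difference between the casein effect and the soy effect was then tested itself. With Soy-20% + SAA as the soy control, Qdpr, Gchfr, Tat and Hpd fell further with casein, where 5.49% of 12532 genes tested were called in that direction. With Soy-20% as the control, 7 of the 8 genes, all but Gch1, fell further with casein, where 3.57% of 12450 genes tested were called in that direction. These tests share the casein and the Soy-10% livers, so they are not independent of each other. Protein fell further with casein (20% to 5%) than with soy (20% to 11.5%), so protein source and degree of restriction cannot be told apart. With Soy-20% as the control, methionine also fell further with casein (0.57 to 0.15 g per 100 g) than with soy (0.22 to 0.13 g). So did cystine (0.41 to 0.1 g against 0.22 to 0.13 g), and the part of these amino acids cannot be told apart either.

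Qdpr, Gchfr and Hpd passed in both tests. The casein effect on Qdpr exceeded the soy effect by -0.72 ± 0.13 (log2, SE, edgeR adjusted p = 0.00149) with the supplemented control and by -0.87 ± 0.12 (edgeR adjusted p = 4.14e-05) with the unsupplemented one. For Gchfr the values were -0.54 ± 0.11 (edgeR adjusted p = 0.00421) and -0.62 ± 0.09 (edgeR adjusted p = 0.000129). For Hpd they were -0.56 ± 0.14 (edgeR adjusted p = 0.0159) and -0.80 ± 0.13 (edgeR adjusted p = 0.000381). All 3 also passed with livers 1 and 2 as the only supplemented controls, at -0.91, -0.73 and -0.75, and with the GC trend as a covariate, at -0.86, -0.67 and -0.69.

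The other breakdown genes depended on the control. Tat gave -1.76 ± 0.40 (SE, edgeR adjusted p = 0.00902) with the supplemented control, but -1.22 (edgeR adjusted p = 0.171) with livers 1 and 2 alone. With the GC trend as a covariate the call for Tat held (-1.52, edgeR adjusted p = 0.02675). Cas-5% and Soy-10% differed by 0.03 in Tat (edgeR adjusted p = 0.952), and Cas-20% and Soy-20% + SAA by 1.78. The estimate of -1.76 thus lay mainly between the control diets. With the unsupplemented control Tat gave -1.07 ± 0.32 (SE, edgeR adjusted p = 0.0475), and the call was lost in 15 of the 24 fits that left out 1 liver, with an adjusted p of up to 0.0919, and of 0.0648 by edgeR without Soy-10% liver 4. Hgd was not called with all 6 supplemented livers (-0.35, edgeR adjusted p = 0.115), and was called with livers 1 and 2 (-0.62, edgeR adjusted p = 0.032) and with Soy-20% (-0.71, edgeR adjusted p = 0.000787). Fah followed the same order, at -0.11 (edgeR adjusted p = 0.562), -0.39 (edgeR adjusted p = 0.0482) and -0.42 (edgeR adjusted p = 0.00213). With the GC trend as a covariate and the supplemented control, Hgd (-0.53, edgeR adjusted p = 0.02655) and Fah (-0.32, edgeR adjusted p = 0.0287) were called as well.

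Pcbd1 passed with Soy-20% (-0.33, edgeR adjusted p = 0.0181) and not with the supplemented control (-0.11, edgeR adjusted p = 0.563) or its livers 1 and 2 (-0.35, edgeR adjusted p = 0.0561). Gch1 did not pass in any of these fits. Its estimate turned from -0.27 with all 6 supplemented livers to 0.07 with livers 1 and 2 and to 0.10 with Soy-20%.

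**Figure D4:**
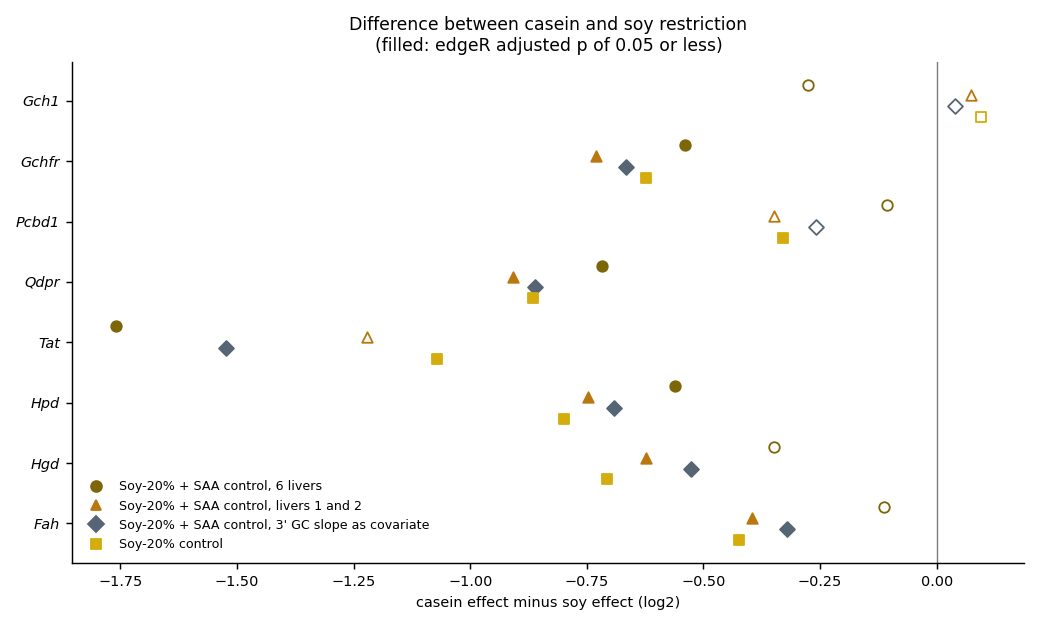
Casein effect minus soy effect on the log2 scale (horizontal axis) for each gene, with Soy-20% + SAA as the soy control in 3 fits and Soy-20% in the fourth symbol; filled symbols have an edgeR adjusted p of 0.05 or less. Qdpr, Gchfr and Hpd are filled in all fits, and Gch1 lies near 0 except with all 6 supplemented livers, at -0.27.

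The restricted diets were compared directly, since both are low in methionine and cystine but differ in protein source and level. Cas-5% was lower than Soy-10% for 5 of the 8 genes, where 6.14% of 12041 genes tested were called lower. Qdpr (-0.65 ± 0.07, SE, edgeR adjusted p = 1.28e-05), Gchfr (-0.45 ± 0.06, SE, edgeR adjusted p = 0.00019) and Pcbd1 (-0.19 ± 0.05, SE, edgeR adjusted p = 0.0254) did not overlap between these diets, as was so in that direction for 4.09% of genes. Qdpr ranked 16 by p among all genes, with 3944 normalized counts in the highest Cas-5% liver and 5210 in the lowest Soy-10% liver. The 3 cofactor genes with separate ranges act in recycling tetrahydrobiopterin or in regulating its synthesis. Pcbd1 was not called without Cas-5% liver 3 or 4 or without Soy-10% liver 6 (edgeR adjusted p of up to 0.0654).

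Of the breakdown genes, Hgd (-0.33 ± 0.07, SE, edgeR adjusted p = 0.00862) and Hpd (-0.29 ± 0.09, SE, edgeR adjusted p = 0.0409) were lower in Cas-5%, with overlapping ranges. Hpd was not called without Soy-10% liver 4 (edgeR adjusted p = 0.0815) or any of 7 other livers. Fah (-0.18, edgeR adjusted p = 0.076), Gch1 (-0.05, edgeR adjusted p = 0.692) and Tat (0.03, edgeR adjusted p = 0.952) did not pass. For Tat the interval was wide, from -0.37 to 0.43.

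The control diets differed mainly in Tat and Hpd. Against Soy-20% + SAA, which matches Cas-20% in sulfur amino acids, 1 of the 8 genes was higher in Cas-20%, where 1.42% of 11988 genes tested were called higher. This was Tat, at 3.44 times the soy level (log2 difference 1.78 ± 0.31, SE, edgeR adjusted p = 0.0206), with ranges that overlapped at the highest Soy-20% + SAA liver. The call was lost with livers 1 and 2 alone (1.24, edgeR adjusted p = 0.585), and without Soy-20% + SAA liver 5 or liver 6 (edgeR adjusted p of up to 0.0647). The other 7 differed by -0.09 to 0.26.

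Against Soy-20%, 4 genes were higher in Cas-20%, where 1.45% of 11875 genes tested were called higher. These diets differ in methionine (0.57 against 0.22 g per 100 g) and cystine (0.41 against 0.22 g) as well as in protein source. The parts of these cannot be told apart in this comparison. Tat was 2.13 times as high (1.09 ± 0.21, SE, edgeR adjusted p = 0.0124), and Hpd 1.41 times (0.50 ± 0.09, SE, edgeR adjusted p = 0.0102). Hpd was the gene with separate ranges, as were 1.16% of genes in that direction. Hgd (0.37, edgeR adjusted p = 0.0494) and Fah (0.24, edgeR adjusted p = 0.0483) were just past the threshold, and each was lost in 11 of the 12 fits that left out 1 liver.

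Added methionine and cystine, the comparison of Soy-20% + SAA with Soy-20%, called none of the 8 genes by edgeR, where 0.00838% of 11932 genes tested were called. At an unadjusted p under 0.05, 6 of the 8 were past the threshold, as were 2892 of all genes (24.2%). DESeq2 called 2 of the 8, Hgd and Fah, and 885 among all genes. Estimates ran from -0.70 for Tat (edgeR adjusted p = 0.114) to 0.35 for Hgd (edgeR adjusted p = 0.076). Without Soy-20% + SAA liver 1, 5 of the 8 genes were called, and the calls among all genes went from 1 to 1587. Without liver 2, Hgd and Fah were called, with 1118 calls among all genes. With livers 1 and 2 alone, none was called, and Qdpr, Pcbd1 and Gchfr changed sign, to -0.05, -0.02 and -0.11.

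Ordered by mean level, Qdpr, Gchfr, Hpd and Hgd ran from Cas-20% through Soy-20% + SAA, Soy-20% and Soy-10% to Cas-5%. Their lowest diet was at 46.8%, 56.6%, 47.3% and 52.3% of the highest. For these 4 genes the step from Soy-10% to Cas-5% passed the test, and none of the 3 steps above it did. Pcbd1 and Fah had Soy-20% + SAA above Cas-20% and the same order otherwise, with their lowest diet at 67.7% and 64.7% of the highest. Gch1 ran in nearly the opposite order, from Soy-10% (2522 ± 235, SD, n = 6) to Soy-20% + SAA (1796 ± 449). Tat stood at 5123 ± 2071 in Cas-20% (SD, n = 6) and at 1490 to 2404 in the other diets, where neighbouring diets overlapped.

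Over the 30 livers, the 15 pairs among the 6 genes other than Gch1 and Tat had a Pearson r of 0.58 to 0.878, highest for Hgd with Fah. These values are across livers that share diets and libraries, and deviations from the diet means gave -0.151 to 0.592. Gch1 had an r of -0.781 to -0.615 with these 6 genes, and Tat -0.103 to 0.482 with the other 7. The deviations from the diet means gave -0.465 to -0.216 for Gch1 and -0.472 to 0.181 for Tat. The genes whose log2 CPM values were most like those of each member over 30 livers were sought among 12032 genes. For Qdpr they were Haao (r = 0.978), Acpp (0.940) and Qprt (0.927), of which Haao and Qprt act in making NAD from tryptophan. Hpd was most like Gnmt (0.923), Oat (0.922) and Gpt (0.911), which act on glycine, ornithine and alanine. For Hgd these were Aldh4a1 (0.937), Slc25a15 (0.927) and Aldh7a1 (0.915). Gchfr was nearest to Gstk1 (0.945), Aldh7a1 (0.940) and Nnmt (0.936), and Fah to Sardh (0.918), Prdx6 (0.915) and Pxmp2 (0.909). Tat was nearest to Srebf1 (0.892), the regulator of fatty acid synthesis, then to Eif5a (0.837) and Cps1 (0.821). The nearest genes to Pcbd1 were H2-Q10 (0.906), Parva (0.901) and Slco2b1 (0.877), and those to Gch1 were Emc7 (0.911), Tmem59 (0.909) and Ugt2b5 (0.908).

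Genes listed beside the route were read in the same comparisons. A place in a list does not mean an established step of tyrosine breakdown. With casein restriction, 13.3% of all genes were called lower and 11.6% higher, and these shares are the background for the counts of all 5 lists. Of 6 genes tested from the list set beside breakdown, of 7 in the tables, 4 fell with casein restriction and 0 rose. The median log2 difference of the 6 was -0.49, against 0.02 over all genes. Got1, a cytosolic aminotransferase that can act on tyrosine, had 3401 ± 1020 normalized counts in Cas-20% (SD, n = 6) and 828 ± 102 in Cas-5%, without overlap (-2.02 ± 0.16, SE, edgeR adjusted p = 2e-07). Ddt, a D-dopachrome tautomerase (-0.95 ± 0.08, SE, edgeR adjusted p = 3.52e-07), Got2, the mitochondrial counterpart of Got1 (-0.48 ± 0.08, SE, edgeR adjusted p = 0.000266), and Fahd2a (edgeR adjusted p = 0.0024) also fell. In Soy-10% against Soy-20% + SAA, 4 were called lower and 0 higher, where 8.47% of all genes were called lower, but 0 were called with livers 1 and 2 as the only supplemented controls or with the GC trend as a covariate. Both of these fits of the list genes, and those without Soy-10% liver 4, were chosen after seeing the data. Got1 differed by -0.78 with all 6 supplemented livers (edgeR adjusted p = 0.00754), by -0.64 with livers 1 and 2 (edgeR adjusted p = 0.0642) and by -0.73 with the covariate (edgeR adjusted p = 0.0636). Against Soy-20%, 0 genes of this list were called. Got1 fell further with casein than with soy under either control, the casein fold being 0.421 and 0.314 times the soy fold (edgeR adjusted p = 0.00389 and 8.79e-05), and 0.382 times with livers 1 and 2 (edgeR adjusted p = 0.0109) or 0.395 times with the covariate and the supplemented control (edgeR adjusted p = 0.00523).

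Of the other 4 cofactor genes, 2 fell with casein restriction, Pcbd2 (-0.35 ± 0.07, SE, edgeR adjusted p = 0.00239) and Spr, the sepiapterin reductase (-0.24 ± 0.07, SE, edgeR adjusted p = 0.0256), and 0 rose. Pcbd2 was called lower in Soy-10% against Soy-20% + SAA (-0.26, edgeR adjusted p = 0.0415), but not with livers 1 and 2 (-0.095, edgeR adjusted p = 0.643), with the covariate (-0.11, edgeR adjusted p = 0.549) or without Soy-10% liver 4 (edgeR adjusted p = 0.0721). None of the 4 was called against Soy-20%. Of 5 genes on other routes of tyrosine and aromatic amines, 1 rose and 2 fell with casein restriction. Dct, dopachrome tautomerase of the melanin route, had normalized counts of 91.9 to 157 in Cas-20% and 0 to 5.76 in Cas-5%, 69 to 240 in Soy-20% + SAA, 22.5 to 67.4 in Soy-20% and 6.46 to 26.6 in Soy-10%. It was called lower in all 3 restriction comparisons (edgeR adjusted p = 1.28e-08, 0.000215 and 0.00702), and the call against Soy-20% + SAA held with livers 1 and 2 (edgeR adjusted p = 0.00137) and with the covariate (edgeR adjusted p = 0.00192). The monoamine oxidases moved in opposite directions with casein restriction, Maoa rising (log2 difference 0.39 ± 0.10, SE, edgeR adjusted p = 0.0112) and Maob falling (-0.75 ± 0.11, SE, edgeR adjusted p = 0.000108).

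Of 4 carriers of aromatic amino acids tested, 2 rose and 1 fell with casein restriction, and 0 were called with soy restriction against either control. Of all genes, 8.51% were called higher and 8.47% lower against Soy-20% + SAA, and 0.319% and 0.546% against Soy-20%. Slc7a5 and Slc3a2, the light and heavy chain of one exchanger of large neutral amino acids, rose by 1.67 ± 0.32 (SE, edgeR adjusted p = 0.00109) and 0.57 ± 0.07 (SE, edgeR adjusted p = 3.01e-05), from a low level for Slc7a5, 7.3 ± 2.58 normalized counts in Cas-20% (SD, n = 6) and 23.3 ± 10.6 in Cas-5%. Slc16a10, a carrier of aromatic amino acids, fell (-0.34 ± 0.09, SE, edgeR adjusted p = 0.0125).

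Of 10 hormone-responsive liver genes known beside Tat, 2 rose and 2 fell with casein restriction. Fkbp5, a glucocorticoid target, rose (0.70 ± 0.19, SE, edgeR adjusted p = 0.0112), as did Sgk1, another such target, named after its values were seen (edgeR adjusted p = 0.0171). Sds, the serine dehydratase, fell from 2321 ± 1013 to 549 ± 115 normalized counts (SD, n = 6; edgeR adjusted p = 5.92e-06), and Ppargc1a fell as well (-0.37 ± 0.10, SE, edgeR adjusted p = 0.0136). The rest of the list, Nr3c1, Tsc22d3, Per1, Tdo2, Pck1 and G6pc, was not called with casein restriction. The part of glucocorticoids was not tested. In Soy-10% against Soy-20% + SAA, 1 of the 10 was called, Tdo2, the tryptophan dioxygenase, at a higher level (0.38 ± 0.09, SE, edgeR adjusted p = 0.0104). This count is near the share of all genes called higher there, 8.51%. Tdo2 was not called with livers 1 and 2 (0.42, edgeR adjusted p = 0.0778) or with the covariate (0.35, edgeR adjusted p = 0.0954).

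**Figure D5:**
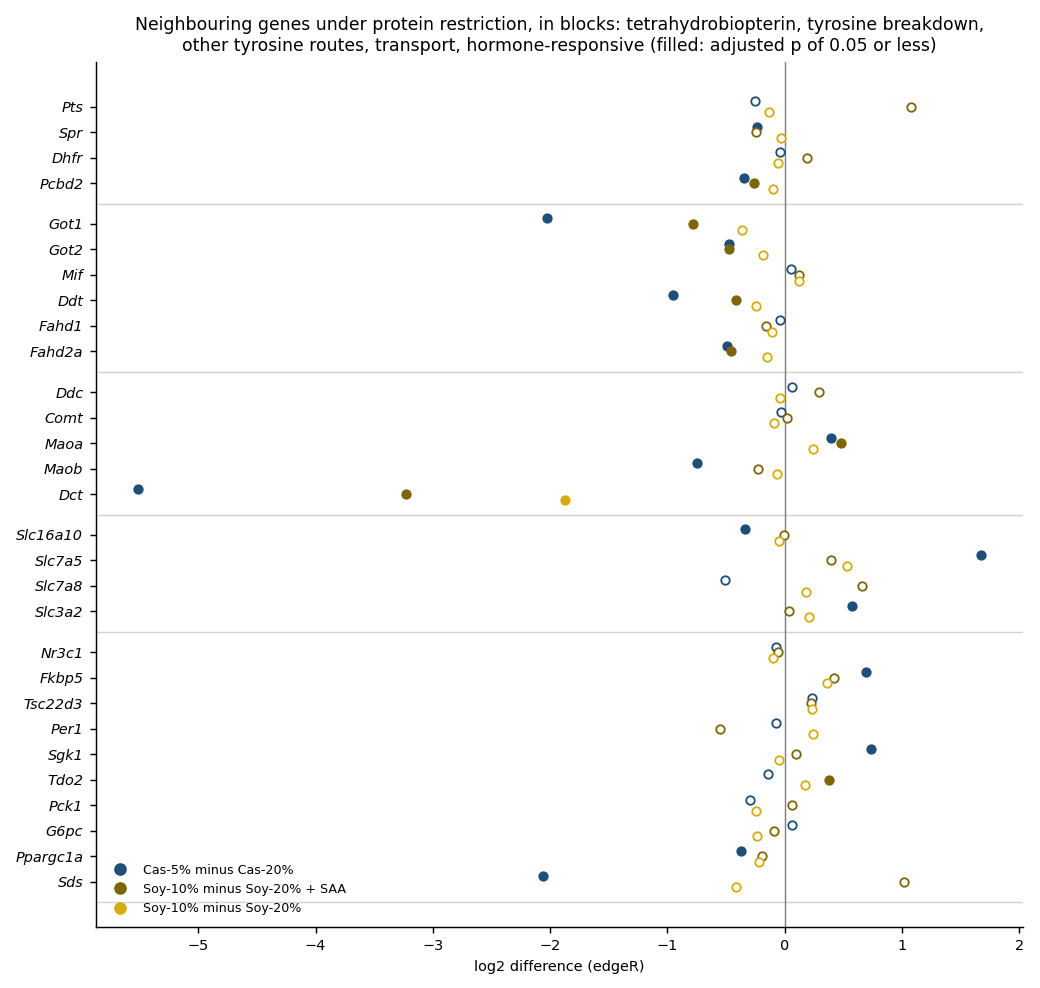
Log2 difference (horizontal axis) of the further genes in 5 blocks from top to bottom, for casein restriction and for soy restriction against either control; filled points have an edgeR adjusted p of 0.05 or less. Dct, Sds (-2.06), Got1 (-2.02) and Ddt (-0.95) lie far to the left with casein restriction, and Slc7a5 (1.67) to the right.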

How the data were processed

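Livers of 30 mice were profiled with the QuantSeq 3′ kit, which reads the 3′ end of each transcript, and 1 library was made per mouse. The deposited table of raw counts was made by the authors by assigning reads to genes with the QuantSeq pipeline of Lexogen, without normalization. A second deposited table, a signal of counts that the authors divided by size factors, gave the normalized counts printed here, which are not scaled to gene length. The submitters' processing notes name R 4.0.3 and DESeq2 1.30, and the aligner is not given in the sources used here. Reading 3′ ends makes counts depend on the bases of that end.

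Raw counts were filtered by filterByExpr, scaled by TMM and tested with the quasi-likelihood F test of edgeR 4.0.16 in R 4.3.3, with Benjamini-Hochberg adjustment over all genes tested and a threshold of 0.05. DESeq2 1.42.0 was an alternative. Python 3.11.15, numpy 2.4.6, pandas 2.3.3 and matplotlib 3.10.9 served the rest. No depth interval was needed at counts of 715 or more. The scripts were tested on simulated data. The GC trend of a library is the slope of its log2 counts on the GC share of the last 200 nt, over 11967 genes. Gene lists and members were chosen with earlier results of these data known. The named genes were the members, up to 3 genes with the smallest adjusted p per list in casein restriction and in Soy-10% against Soy-20% + SAA, and the 3 most correlated genes per member over log2 CPM (prior count 2). Of 1718 genes without a symbol, 1684 were named from GENCODE M21, and RefSeq promoters matched all 8 members. Also, 2 genes of the route are not reported here.

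Livers of a diet came from separate mice, and no pair of libraries within a diet agreed within sampling noise (lowest chi-square per degree of freedom 6.12 over 75 pairs). No column of another series was present (0 columns). The alternatives were median-of-ratios scaling, no filter, DESeq2, all 30 livers in one fit, a block for the replicate number, the GC trend as a covariate, livers 1 and 2 as the only supplemented controls, and leaving out each liver. For the genes of the other lists, 3 of these were added after seeing the data (the covariate, livers 1 and 2, and leaving out Soy-10% liver 4).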

Additional observations from a re-analysis of the deposited data

Results flagged for a closer look

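In 7 of 40 groups of 6 livers, 1 liver lay apart from the other 5 by more than Dixon's 95% limit, where chance gives about 1 group in 20. The high values were Qdpr (6302) and Pcbd1 (3545) in Soy-10% liver 6, Gchfr in Soy-20% liver 6 (1591), Tat in Soy-20% + SAA liver 1 (2994), and Hgd (2427) and Fah (3294) in Cas-5% liver 6, all normalized counts. The low value was Pcbd1 in Cas-5% liver 3 (2602).

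The effect of restriction differed between casein and soy by a test of the difference itself for 4 genes with the supplemented control, Qdpr (-0.72), Gchfr (-0.54), Tat (-1.76) and Hpd (-0.56, all log2). With Soy-20% as the control it differed for 7 genes, Qdpr (-0.87), Pcbd1 (-0.33), Gchfr (-0.62), Tat (-1.07), Hpd (-0.80), Hgd (-0.71) and Fah (-0.42). Each negative value means a larger decrease with casein, where protein fell from 20% to 5%. With soy it fell from 20% to 11.5%, so source and degree of restriction cannot be told apart. With Soy-20% as the control, methionine and cystine also fell further with casein than with soy, which cannot be told apart either.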

How the results depend on the processing

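Casein restriction kept its 7 calls under all alternatives, with 7 to 8 genes called when 1 liver was left out. The number of genes called among all tested (3008) stayed within 1.5 times under each. Many results that used Soy-20% + SAA changed without its livers 3 to 6 and with the GC trend as a covariate. Both fits have less power, and the cause of the changes was not tested. The casein minus soy calls for Qdpr, Gchfr and Hpd with the supplemented control held in both fits. Protein and sulfur amino acids change together in the restricted diets, and 6 livers per diet limit which small differences can be seen.

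With the GC trend as a covariate, 0 of the 8 genes were called in Soy-10% against Soy-20% + SAA (387 among all genes, against 2035), 0 in Cas-20% against Soy-20% + SAA (5 against 291), and 2 in Cas-20% against Soy-20%. All-gene counts were then 0 for the supplement (against 1), 569 for casein minus soy with the supplemented control (against 1089) and 3556 over the 5 diets (against 5450). For casein minus soy with the supplemented control, 6 of the 8 genes were called (against 4). Signs turned for Tat in soy restriction (-0.29), for Qdpr (-0.021), Pcbd1 (-0.00027) and Gchfr (-0.087) in the supplement, for Pcbd1 (0.087), Gch1 (-0.13) and Fah (0.14) in Cas-20% against Soy-20% + SAA, and for Gch1 in casein minus soy (0.040).

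With livers 1 and 2 as the only supplemented controls, the counts in the same order were 0 (317 among all genes) for soy restriction and 0 (3) for Cas-20% against Soy-20% + SAA. The all-gene counts were 0 for the supplement, 296 for casein minus soy and 3433 over the 5 diets. Signs turned for the same genes and comparisons, at -0.41 for Tat, -0.045, -0.022 and -0.11 for Qdpr, Pcbd1 and Gchfr, 0.15, -0.13 and 0.21 for Pcbd1, Gch1 and Fah, and 0.073 for Gch1.

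With all 30 livers in one fit, 4 genes were called for the supplement (1793 among all genes). All-gene counts were 3077 for soy restriction with the supplemented control, 62 with the unsupplemented one (against 103), 2331 for Cas-20% against Soy-20% + SAA, and 493 for casein minus soy with Soy-20% (against 746). DESeq2 called 2 genes in Soy-10% against Soy-20% (228 among all genes), 2 for the supplement (885), and 1155 and 608 among all genes for Cas-20% against Soy-20% + SAA and against Soy-20% (319 by edgeR). Median-of-ratios scaling and no filter each called 2 genes in Cas-20% against Soy-20%, and 2 among all genes for the supplement.

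Numbers of livers do not pair them: of 42 same-numbered pairs, 7 had a correlation of deviations above 0.1 (-0.19 to 0.19), and 0 comparisons had all pairs above it. With the replicate block, 1 gene was called in Cas-20% against Soy-20% (190 among all genes), 141 genes among all in Cas-20% against Soy-20% + SAA, and Tat in the restricted diets turned to -0.012.

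Leaving out 1 liver gave 5 to 7 of the 8 genes for soy restriction with the supplemented control (1219 to 3119 among all genes), 0 to 1 with Soy-20% (50 to 146), 0 to 5 for the supplement (0 to 1587, both highest without Soy-20% + SAA liver 1), 0 to 1 for Cas-20% against Soy-20% + SAA (9 to 1817), 2 to 4 against Soy-20% (160 to 442) and 3 to 6 for the restricted diets (981 to 1317). For casein minus soy it gave 4 in each fit with the supplemented control (719 to 1941), and 6 to 7 with Soy-20% (601 to 764). Over the 5 diets all 8 held (4626 to 6074). Signs turned for Hgd in Cas-20% against Soy-20% + SAA (-0.047 to 0.070) and for Tat in the restricted diets (-0.077 to 0.16).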
